A study of Mus musculus with 12 samples.

Results

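The 256 genes described here are the well-expressed Zfp genes of mouse embryonic fibroblasts undergoing reprogramming. A gene was taken when its symbol was Zfp followed by a number and its mean reached 5 CPM (counts per 1e+06 counts in the library) in at least 1 of the 4 groups of samples. The deposited table held 367 Zfp genes among 24207 genes. Of these, 109 stayed under 5 CPM in every group and 3 were left out by name. Because measured levels chose the genes, their levels are a description. The genes nearest the limit inside it were Zfp599, Zfp184 and Zfp955a, with highest group means of 5.01, 5.17 and 5.30 CPM. Just outside it were Zfp341, Zfp174 and Zfp473, at 4.77, 4.89 and 4.96 CPM. In all 4 groups, 220 of the 256 genes were at 5 CPM or more, and 10 reached it in 1 group alone.

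The series held 12 RNA-seq libraries in 4 groups of 3. All cells were C57BL/6 embryonic fibroblasts with FUW-OSKM and FUW-M2rtTA, lentiviral constructs that express Oct4, Sox2, Klf4 and Myc (OSKM) when doxycycline is added. All were kept in embryonic stem (ES) cell medium on irradiated feeder fibroblasts, and RNA was taken on day 7. The labels do not say that feeder RNA was removed. The uninduced cells carried a scrambled short hairpin (shRNA) and received no doxycycline. The other 3 groups received doxycycline and carried the scrambled hairpin (OSKM cells), a hairpin against Trim28 (Trim28-knockdown cells), or hairpins against Trim28 and Setdb1 (double-knockdown cells). No group carried the Setdb1 hairpin alone. The labels do not say whether the 3 libraries of a group came from separate cultures, so p-values measure the spread between these libraries, which may be technical.

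Zfp is a name for mouse zinc finger proteins, not for one family. Most carry C2H2 fingers, short loops held by a zinc ion, and arrays of such fingers read DNA sequence. A large subgroup also has a KRAB domain, which binds the corepressor Trim28. Trim28 brings in Setdb1, a histone H3 lysine 9 methyltransferase, along with heterochromatin protein and deacetylase complexes. KRAB zinc finger genes sit in clusters that arose by duplication, silence transposable elements, and are themselves known to lie in chromatin marked by H3 lysine 9 methylation. Other Zfp proteins lack KRAB and act in mRNA decay, ribosome quality control, chromatin complexes or lineage choice.

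Protein sequences translated from the reference annotation showed a KRAB-type pattern in 124 of the 256 genes and none in 131, while Zfp783 had no protein. By position, 132 genes lay within 2e+05 bases of another of the 256, in 36 clusters. The largest cluster held 14 genes on chromosome 17, from 21383748 to 22456689 as the deposited table gives coordinates. RefSeq promoter windows of 300 bases (250 before to 50 after the gene start, build GRCm38.p6) were found for 207 of the 256 genes. Windows of the Zfp genes had a median of 16 CpG per window, against 7 over all 27025 promoters. Those 27025 were not limited to genes expressed here, while the Zfp genes were, so expression and gene type cannot be told apart in this difference. The following windows belong to Zfp296, the gene with the largest difference after induction, to Zfp109 and Zfp454, the genes with the largest differences after Trim28 knockdown, and to Zfp37, which differed most when the Setdb1 hairpin was added. Capitals mark motif matches.
Zfp296, chr7:19577037-19577336, plus strand: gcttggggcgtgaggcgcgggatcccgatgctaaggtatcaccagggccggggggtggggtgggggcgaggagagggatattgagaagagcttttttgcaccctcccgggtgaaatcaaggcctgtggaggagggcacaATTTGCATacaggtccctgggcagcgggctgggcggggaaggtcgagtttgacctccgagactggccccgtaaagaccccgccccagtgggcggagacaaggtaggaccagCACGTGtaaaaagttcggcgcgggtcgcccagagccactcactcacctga
Zfp109, chr7:24237549-24237848, minus strand: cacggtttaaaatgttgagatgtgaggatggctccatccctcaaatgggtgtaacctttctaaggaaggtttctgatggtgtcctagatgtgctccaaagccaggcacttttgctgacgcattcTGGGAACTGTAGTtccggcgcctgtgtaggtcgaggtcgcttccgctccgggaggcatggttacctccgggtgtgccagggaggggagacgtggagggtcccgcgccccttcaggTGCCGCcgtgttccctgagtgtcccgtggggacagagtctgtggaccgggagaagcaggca
Zfp454, chr11:50887461-50887760, minus strand: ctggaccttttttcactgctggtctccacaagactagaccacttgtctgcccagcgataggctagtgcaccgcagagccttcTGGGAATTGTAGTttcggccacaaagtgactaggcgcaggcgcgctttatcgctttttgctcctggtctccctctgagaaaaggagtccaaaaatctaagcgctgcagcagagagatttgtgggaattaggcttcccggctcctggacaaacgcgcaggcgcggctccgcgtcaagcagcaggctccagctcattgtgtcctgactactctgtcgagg
Zfp37, chr4:62208497-62208796, minus strand: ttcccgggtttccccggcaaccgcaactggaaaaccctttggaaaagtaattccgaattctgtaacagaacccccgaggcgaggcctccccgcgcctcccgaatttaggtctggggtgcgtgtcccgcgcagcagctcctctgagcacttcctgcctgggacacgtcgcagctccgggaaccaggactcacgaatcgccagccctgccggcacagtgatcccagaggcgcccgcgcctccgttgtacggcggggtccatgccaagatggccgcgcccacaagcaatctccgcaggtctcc

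Both strands of every window were searched for 4 motifs. They were the octamer ATGCAAAT known from Oct4 sites, the E-box CACGTG known from Myc sites, the GC-rich hexamer TGCCGC, and the ZNF143-type motif (ACTACA, 2 free bases, then TCCCA), known from promoters bound by human ZNF143. No motif is part of another. The last was picked after the Zfp109 and Zfp454 windows had been read. The Zfp296 window held the octamer, read on the plus strand as ATTTGCAT and beginning 111 bases before the gene start, and an E-box at the start. The Zfp109 and Zfp454 windows held TGGGAACTGTAGT and TGGGAATTGTAGT, both the ZNF143-type motif on the opposite strand, and that of Zfp109 also held TGCCGC. None of the 4 motifs was in the Zfp37 window. The ZNF143-type motif was in 29 of the 207 Zfp windows (14.0%) and in 437 of all 27025 (1.62%). It was in 20.8% of windows of Zfp genes with the KRAB pattern and in 7.0% of those without. The octamer was in 2.42% of Zfp windows and 1.75% of all windows, the E-box in 8.7% and 7.24%, and TGCCGC in 19.3% and 11.6%. These shares are descriptions of letters, without a test, and the windows of all genes were not limited to expressed genes.

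**Figure D1:**
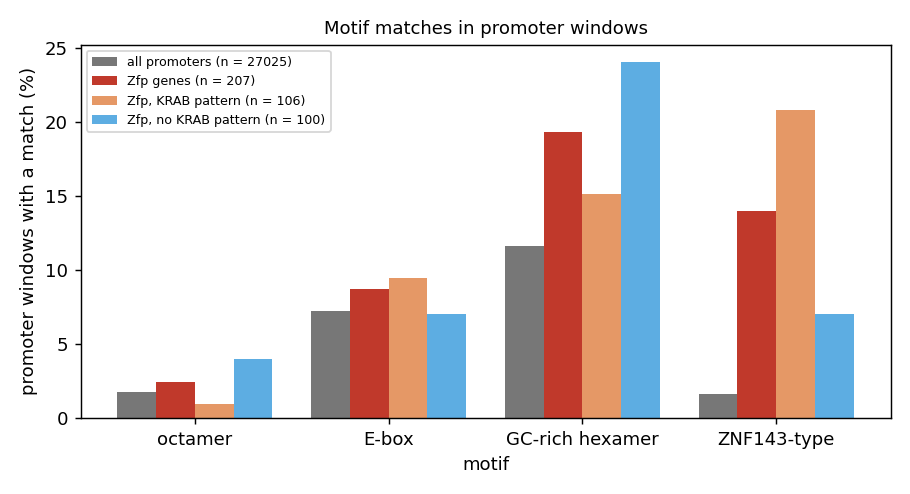
Share of RefSeq promoter windows (vertical axis, %) with a match to each of 4 motifs, for all 27025 promoters, 207 Zfp promoters, and the Zfp promoters of genes with (106) and without (100) the KRAB pattern. The ZNF143-type motif stands at 14.0% in Zfp windows against 1.62% in all, which were not limited to expressed genes.

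The libraries held 11906701 to 19191649 counts, and the 256 genes took 0.649% to 0.775% of them. In 1 library, 3 counts equal 0.156 to 0.252 CPM. Values from here on are CPM normalised with TMM factors, which adjust each library's total for its composition. Trim28 stood at 249 ± 24.9 CPM in uninduced cells, 328 ± 38.3 in OSKM cells, 58.5 ± 5.95 in Trim28-knockdown cells and 103 ± 6.41 in double-knockdown cells (SD, n = 3). Setdb1 stood at 60.7 ± 4.29, 81.3 ± 4.27, 122 ± 1.36 and 63.1 ± 8.21 CPM. Trim28 was thus low in both knockdowns, less so in the double, while Setdb1 was highest in Trim28-knockdown cells. Of 13 genes of the Trim28 corepressor machinery, these 2 included, 6 rose and 2 fell with induction, 1 rose and 3 fell with Trim28 knockdown, and 1 rose and 4 fell in the double knockdown. Against Trim28-knockdown cells, 2 rose and 3 fell in double-knockdown cells. Over all genes tested, 65.3%, 24.9%, 36.7% and 21.7% changed in these 4 comparisons. Atf7ip, the partner that stabilises Setdb1, stood at 118 ± 7.59 CPM in OSKM cells, 89.8 ± 4.37 in Trim28-knockdown cells and 170 ± 12.7 in double-knockdown cells.

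The cell types checked by marker lists differed between groups. The 6 fibroblast markers (Col1a1, Col1a2, Col3a1, Thy1, Pdgfrb and Dcn) summed to 20364 to 24630 CPM in uninduced libraries and 14017 to 20944 in OSKM libraries. They summed to 11392 to 12777 in Trim28-knockdown and 15458 to 17886 in double-knockdown libraries. The 6 epithelial markers summed to 7.31 to 8.35 CPM uninduced, with Esrp1 at 0, and then to 1576 to 1989, 1604 to 1819 and 901 to 1120 in the same order. The 6 pluripotency markers summed to 0.187 to 0.842, with Tdh and Utf1 at 0, then to 208 to 276, 223 to 252 and 134 to 159. Of 6 macrophage markers, 5 were in the table, at 4.79 to 5.79 CPM uninduced and 42.4 to 63 in the 9 induced libraries, with Emr1 at 0 in Trim28-knockdown libraries. Laptm5 alone made up 35.7 to 51.6 CPM of the induced macrophage sums. Csf1r stood at 1.29 to 1.75 CPM uninduced, 2.19 to 2.51 in OSKM, 0.887 to 1.05 in Trim28-knockdown and 1.12 to 1.23 in double-knockdown libraries. The 4 neural markers summed to 236 to 271 uninduced and 336 to 484 in induced libraries, with Sox10 at 0 in OSKM libraries. The 4 endothelial markers summed to 11.4 to 12.2 and 42.3 to 66.8, with Tek alone at 38.2 to 64.5 in induced libraries and Kdr lower there than uninduced. Members of a list did not all move with its sum. Dcn, for one, stood at 117 to 142 CPM uninduced and 231 to 233 in OSKM libraries, against the fibroblast sum. The 6 epithelial markers and the pluripotency sum were lower in double-knockdown libraries than in the other induced libraries. L1td1 alone made up 114 to 133 CPM of the pluripotency sum in double-knockdown libraries. L1td1, Tdh and Nanog were lower there than in Trim28-knockdown libraries without overlap, while Esrrb and Utf1 overlapped. Dppa5a stood at 2.18 to 2.98 CPM in double-knockdown and 0.828 to 2.28 in Trim28-knockdown libraries. In bulk RNA, fewer cells of a type and less RNA per cell cannot be told apart, and the part of these markers in the results below was not tested.

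Among the 256 genes the mean over all libraries ran from 3.78 to 370 CPM with a median of 15.8, and 9 genes were at 100 CPM or more. Per kilobase of exon, the CCCH finger genes Zfp36l2, Zfp36l1 and Zfp36 had the highest levels, at 68.6, 65.7 and 43.2 CPM per kb as the mean over the 4 groups. Zfp106 and Zfp207 followed at 35.5 and 29.9, and the median gene was at 3.50. The 256 genes together came to 7060 ± 228 CPM in uninduced cells, 7188 ± 261 in OSKM cells, 7324 ± 72.2 in Trim28-knockdown cells and 6734 ± 251 in double-knockdown cells. The sum was lowest in double-knockdown cells, and the difference between uninduced and OSKM cells was smaller than the SD of either. Their highest group mean fell in uninduced cells for 95 genes, in OSKM cells for 64, in Trim28-knockdown cells for 82 and in double-knockdown cells for 15. These are 37.1%, 25%, 32% and 5.86% of the Zfp genes, against 39.8%, 24.4%, 21.1% and 14.7% of all genes. The lowest mean fell in double-knockdown cells for 90 genes, or 35.2%, against 13.2% of all 14520 genes tested. The choice of the 256 genes used group means, while the genes tested as a whole met no 5 CPM limit. These shares were not computed for the 220 genes at 5 CPM or more in all 4 groups. No comparison changed 95 of the 256 genes, and 4 changed in all 4 comparisons. These counts were not computed over all genes tested, so they have no background here.

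The first comparison, OSKM against uninduced cells, asked which Zfp genes move with induction. Of the 256 genes, 128 changed, or 50% against 65.3% of all genes tested: 69 rose, 59 fell and 128 did not pass the test (edgeR quasi-likelihood test, Benjamini-Hochberg adjusted p under 0.05 over all 14520 genes). Over all genes tested, 32.7% rose and 32.7% fell, so the Zfp shares of 27% and 23% were below the background in both directions. With library totals as the only scaling, 97 Zfp genes rose and 30 fell. Of all 14520 genes, 5829 rose and 3619 fell with that scaling, against 4743 and 4741 with the main one. The median of all genes moved from -0.02 to 0.11 on the log2 scale. The main median of the 256 genes was -0.01. Libraries did not overlap between groups for 119 Zfp genes, against 64.6% of all genes. At least 2-fold rises numbered 13 (14.2% of all genes), and Zfp521 alone fell that far (7.18% of all genes). In this comparison 20 genes stood at 5 CPM or more in one group and under it in the other, so their difference was built into the choice. Without them, 58 of 236 rose and 57 fell.

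The second comparison, Trim28-knockdown against OSKM cells, moved few Zfp genes. There 20 rose, 9 fell and 227 did not pass, against a background of 13.1% rising and 11.8% falling. The Zfp shares were 7.81% and 3.52%. The median log2 difference was 0.03, and that of all genes -0.00. Changed genes made up 11.3% of the Zfp genes and 24.9% of all genes. Libraries did not overlap for 73 of the 256 genes, against 38.9% of all. Zfp109 and Zfp454 were at least 2-fold higher and no Zfp gene was at least 2-fold lower, where 2.96% and 2.54% of all genes were. Of 18 genes on both sides of the limit, 4 were among the changed, and 16 rose and 9 fell without them. Without OSKM replicate 3 the counts were 9 rising and 5 falling. Without OSKM replicate 2, 34 rose, and without OSKM replicate 1, 20 fell. Without Trim28-knockdown replicate 1, 2 or 3, 11, 12 and 11 rose, and without uninduced replicate 3, 14 fell.

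In the third comparison, double-knockdown against OSKM cells, falls outnumbered rises. Of the 256 genes, 17 rose, 51 fell and 188 did not pass. The background was 18.1% rising and 18.5% falling, so the rising share of 6.64% was below it and the falling share of 19.9% near it. The median was -0.10 (all genes 0.00), and 163 of the 256 genes were lower, or 63.7%, against 49.9% of all genes. Changed genes made up 26.6% of the Zfp genes and 36.7% of all genes. Libraries did not overlap for 86 genes, against 45.1% of all. Zfp37, Zfp109 and Zfp454 were at least 2-fold higher and no Zfp gene was at least 2-fold lower, where 3.23% and 3.89% of all genes were. Of the 17 genes on both sides of the limit, 8 were among the changed, and 14 rose and 46 fell without them. Without OSKM replicate 3, 11 rose, and without double-knockdown replicate 1, 9 rose.

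The fourth comparison set double-knockdown against Trim28-knockdown cells, which differ by the Setdb1 hairpin and by the weaker Trim28 knockdown in the double, so the hairpin and the Trim28 level cannot be told apart. Here 3 genes rose (Zfp37, Zfp639 and Zfp9), 37 fell and 216 did not pass. The background was 10% rising and 11.7% falling. The Zfp falling share of 14.5% was near the background, and the rising share of 1.17% below it. Of the 256 genes 189 were lower, or 73.8% against 49.4% of all genes, with a median of -0.12 against 0.00. Over 20 alternative settings the median stayed between -0.15 and -0.09. Changed genes made up 15.6% of the Zfp genes and 21.7% of all genes. Libraries did not overlap for 115 genes, against 46.9% of all. Zfp37 was at least 2-fold higher and Zfp141 at least 2-fold lower, where 0.916% and 1.65% of all genes were. Of the 13 genes on both sides of the limit, 2 were among the changed, and 3 rose and 35 fell without them. A fit of these 2 groups alone gave 13 rises and 67 falls among the Zfp genes. In that fit 2376 of 14064 genes rose and 2473 fell, against 1452 and 1702 of 14520 in the main fit. Falls among the Zfp genes numbered 20 and 24 without Trim28-knockdown replicate 2 or 3, and 22 and 21 without double-knockdown replicate 1 or 3. Rises numbered 8 without OSKM replicate 1 or 2, and 5 without uninduced replicate 3 or double-knockdown replicate 3.

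**Figure D2:**
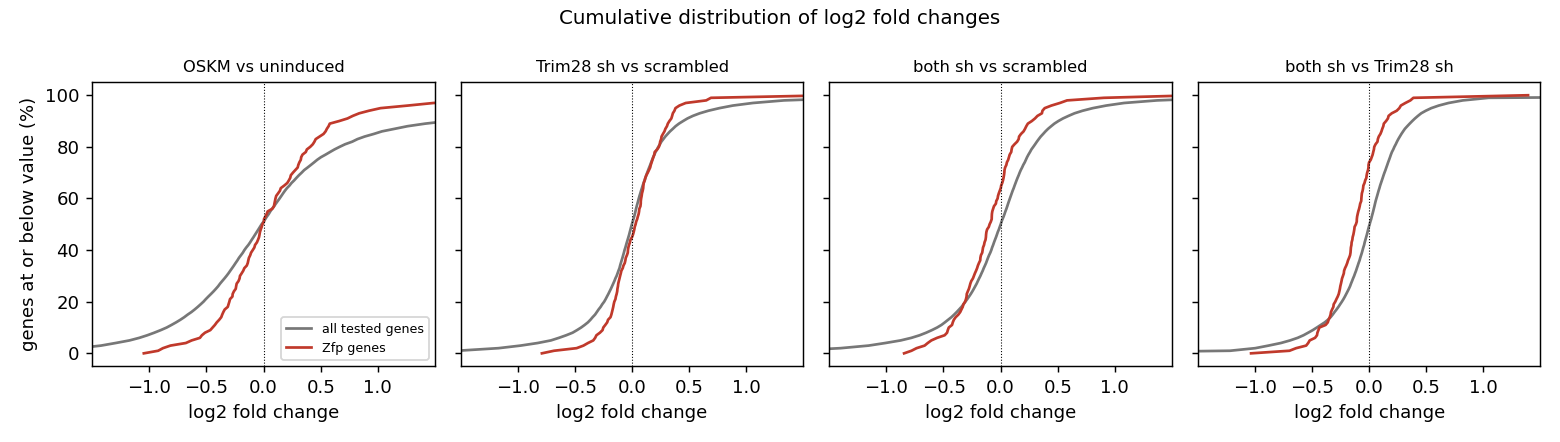
Cumulative share of genes (vertical axis, %) at or below each log2 fold change (horizontal axis), for the 256 Zfp genes and all 14520 tested genes in each of the 4 comparisons. The Zfp curve is steeper, and in both comparisons with double-knockdown cells it lies to the left over most of its course, with medians of -0.10 and -0.12.

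Genes with and without the KRAB pattern were set side by side. The pattern was not found in Zfp202, listed below among KRAB genes, so the group without it may hold KRAB genes. With induction, 32 of 124 KRAB-pattern genes rose and 22 fell, or 25.8% and 17.7%. Without the pattern 37 of 131 rose and 36 fell, or 28.2% and 27.5%. Over all genes tested 32.7% rose and 32.7% fell, so both groups were below the background. With Trim28 knockdown, 11 with the pattern rose and 4 fell (8.87% and 3.23%), against 9 and 5 without (6.87% and 3.82%). Of all genes 13.1% rose and 11.8% fell. In the double knockdown, 8 KRAB-pattern genes rose and 29 fell, against 9 and 22. The rising shares were 6.45% and 6.87%, against 18.1% of all genes. Against Trim28-knockdown cells, 1 KRAB-pattern gene rose and 20 fell (0.806% and 16.1%), against 2 and 17 (1.53% and 13%). Of all genes 10% rose and 11.7% fell there. The medians of that last comparison were -0.16 with the pattern and -0.07 without, and 104 of 124 and 84 of 131 genes were lower. Of the changed genes, those on both sides of the 5 CPM limit, whose difference was built into the choice, numbered 9 with and 4 without the pattern with induction, 4 and 0 with Trim28 knockdown, 8 and 0 in the double, and 2 and 0 between the knockdowns. In the double 23.4% of KRAB-pattern genes and 16.8% of the others fell, against 18.5% of all genes. Changed or not, 15 genes with and 5 without the pattern stood on both sides of the limit with induction, and 15 and 3 with Trim28 knockdown. The numbers were 14 and 2 in the double, and 11 and 1 between the knockdowns. The medians and shares of the structural groups include these genes and were not computed without them. The difference between the structural groups was not tested.

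**Figure D3:**
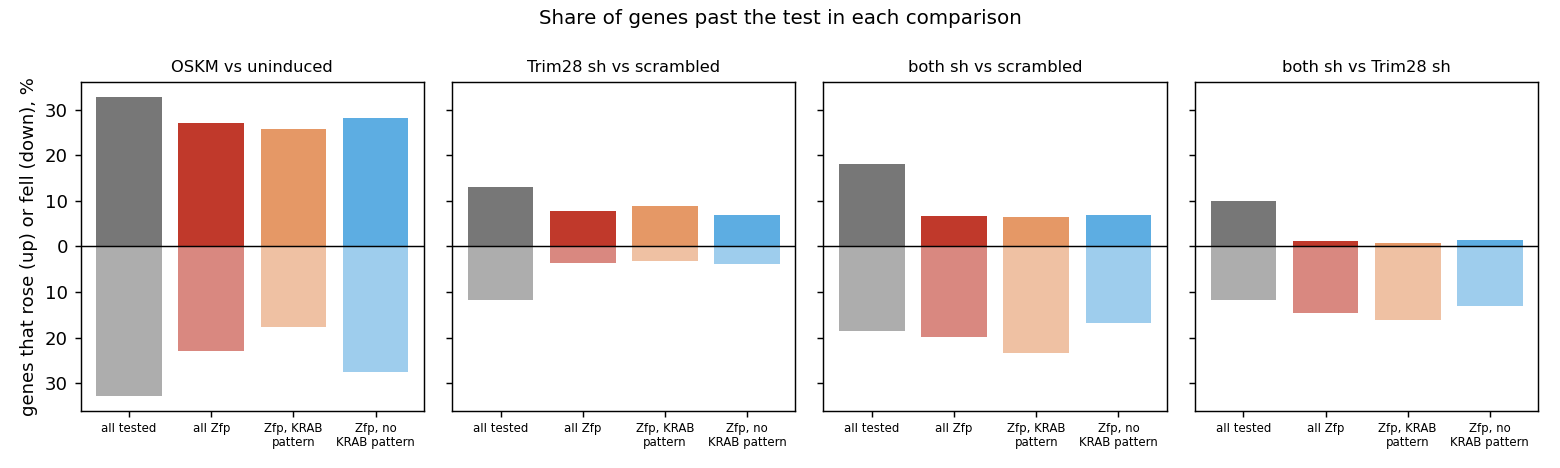
Share of genes (%) that rose (bars up) or fell (pale bars down) in each comparison, for all tested genes, all 256 Zfp genes, and Zfp genes with and without the KRAB pattern. In double-knockdown against Trim28-knockdown cells 1.17% of Zfp genes rose and 14.5% fell, against 10% and 11.7% of all genes.

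Genes in the same cluster were compared along the chromosome. Of 96 pairs of neighbouring Zfp genes, 53 had the same sign of change with induction (55.2%, against 54.8% of 12693 neighbouring pairs of all genes). The share was 47.9% with Trim28 knockdown, against 53.7%. It was 55.2% in the double knockdown, against 54.1%, and 66.7% in double-knockdown against Trim28-knockdown cells, against 54.6%. In that last comparison any pair of the 256 genes, neighbours or not, had the same sign in 61.2% of cases, since most were lower. The share over any pair was 49.8%, 50.2% and 53.6% in the first 3 comparisons. In 3 of the 13 clusters with 4 or more members, every member was lower in double-knockdown than in Trim28-knockdown cells, where 73.8% of all the Zfp genes were lower. They were 8 genes on chromosome 13 from Zfp595 to Zfp65, 6 on chromosome 17 from Zfp871 to Zfp763, and 5 on chromosome 7 from Zfp180 to Zfp61. Their medians were -0.26, -0.30 and -0.34, and 1, 2 and 2 members passed the test. Neighbouring copies can share reads, and the sources used here do not say how reads with several matches were treated.

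Among KRAB-type genes, the largest differences after Trim28 knockdown belonged to Zfp109 and Zfp454. Zfp109 (chromosome 7, 24228048 to 24236632) stood at 2.19, 2.06 and 2.65 CPM in uninduced libraries, 3.51, 3.16 and 3.35 in OSKM libraries, 10.4, 12.7 and 11.1 in Trim28-knockdown libraries and 6.71, 9.76 and 7.54 in double-knockdown libraries. Every knockdown library was above every OSKM library, and the Trim28-knockdown libraries were the highest. The log2 difference from OSKM cells was 1.76 with Trim28 knockdown (SE 0.16) and 1.26 in the double (SE 0.16). Zfp454 (chromosome 11, 50872720 to 50887651) ran at 1.56, 1.29 and 1.36, then 2.22, 2.19 and 2.85, then 6.86, 8.81 and 6.83, and last 5.35, 6.29 and 4.67 CPM in the same order of groups. It had the same order of groups, without overlap, and log2 differences of 1.61 (SE 0.17) and 1.15 (SE 0.18). Both genes were under 5 CPM without a Trim28 hairpin, so the limit itself used these differences and no p is given for them.

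Zfp809, which recognises retroviral primer binding sites and recruits Trim28 to them, was the clearest rise among KRAB genes with described targets. Its OSKM libraries stood at 10.3, 13.8 and 11.3 CPM, its Trim28-knockdown libraries at 20.1, 18.4 and 18.6, and its double-knockdown libraries at 17.5, 18.6 and 16.4. Uninduced libraries stood at 11.9, 11.6 and 12, so both knockdowns lay above both other groups. The rise was 0.70 (SE 0.11, edgeR adjusted p = 0.000144) with Trim28 knockdown and 0.58 (SE 0.11, edgeR adjusted p = 0.000511) in the double. Zfp568, the repressor of a placental Igf2 transcript, rose by 0.58 with induction, from 35.5 ± 1.95 to 53.2 ± 6.05 CPM (SD, n = 3). It stood at 64.7 ± 1.63 CPM after Trim28 knockdown and 54.3 ± 3.01 in the double. Its rise with Trim28 knockdown (0.29, edgeR adjusted p = 0.016) was lost without OSKM replicate 1 or 3 (0.0774 and 0.0661) or Trim28-knockdown replicate 1 or 3 (0.0701 and 0.0565). Zfp445, which guards imprints, stood at 48.8 ± 6.47 CPM in OSKM cells, 52.2 ± 0.56 after Trim28 knockdown and 40.9 ± 8.86 in the double. Its difference between the knockdowns was -0.35 (edgeR adjusted p = 0.0506, and 0.00171 to 0.212 over 19 alternatives). That difference passed in 11 of the 19 alternatives, among them DESeq2 (adjusted p = 0.0273) and edgeR with the replicate number as a block (0.03). Zfp932, a repressor of endogenous retroviruses, stood between 12.2 and 14.2 CPM as group means and Zfp202 between 3.76 and 5.84, with no call. The KRAB pattern was not found in Zfp202. Of the 9 genes listed with described targets, 5 were well expressed and Zfp819 and Zfp689 were under the limit, while Zfp274 and Zfp708 were not analysed here. With Trim28 knockdown 2 of the 5 rose, where 13.1% of all genes did, and Zfp809 alone rose in the double, where 18.1% did.

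The other KRAB-pattern genes with large differences included Zfp78, Zfp141 and Zfp7, which were higher after induction. Zfp141 (chromosome 7, 42473386 to 42505726) stood at 6.81, 7.59 and 12 CPM in uninduced libraries and 63.5, 96.8 and 82.7 in OSKM libraries. It then stood at 91.8, 104 and 89.5 in Trim28-knockdown and 40.4, 49.9 and 49.0 in double-knockdown libraries. Double-knockdown libraries fell between the uninduced and the other induced libraries without overlap. The rise with induction was 3.20 (SE 0.18, edgeR adjusted p = 1.87e-10), and against Trim28-knockdown cells it fell by 1.03 in the double (SE 0.15, edgeR adjusted p = 0.000182). Zfp78 had 0.749, 0.707 and 0.906 CPM uninduced and 6.43, 9.32 and 8.91 in OSKM libraries, a difference of 3.37 that the limit used. Its Trim28-knockdown libraries stood at 13.3, 13.1 and 12.7 and its double-knockdown libraries at 6.77, 9.48 and 9.52. It was highest with the Trim28 hairpin alone, by 0.67 over OSKM cells (SE 0.15, edgeR adjusted p = 0.00323). Zfp7 rose by 2.13 with induction, from 6.92 ± 0.538 to 30.2 ± 3.78 CPM, and Zfp772 by 1.53, from 5.44 ± 0.611 to 15.7 ± 0.51.

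Zfp354c and Zfp9, both with the KRAB pattern, led the falls of KRAB genes with Trim28 knockdown. Zfp354c went from 31.3, 31.8 and 29.8 CPM in OSKM libraries to 21.6, 17.2 and 17.3 in Trim28-knockdown libraries and 20.1, 20.2 and 18.0 in double-knockdown libraries. Neither knockdown overlapped OSKM cells. The falls were -0.72 (SE 0.11, edgeR adjusted p = 0.000132) and -0.67 (SE 0.11, edgeR adjusted p = 0.000174). Zfp9 stood at 27.1, 27 and 26.7 CPM in OSKM libraries, 17.3, 16.9 and 17.3 after Trim28 knockdown and 23.2, 23.6 and 20.2 in the double. It was lowest with the Trim28 hairpin alone and 0.38 higher in the double (SE 0.09, edgeR adjusted p = 0.00672). Zfp110 had 37.6 ± 4.32 CPM in OSKM cells and rose by 0.45 to 51.2 ± 0.992 with Trim28 knockdown and by 0.37 to 48.5 ± 0.994 in the double. In the double knockdown Zfp930 fell by 0.78, from 11.2 ± 3.23 to 6.43 ± 0.626 CPM. Zfp871 and Zfp169 fell by 0.64 and 0.70 against Trim28-knockdown cells, from 37.9 ± 2.37 to 24.2 ± 6.49 and from 9.19 ± 0.472 to 5.67 ± 0.839 CPM.

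Zfp37, a gene with 12 fingers and no match to the KRAB pattern, was the one Zfp gene that rose at least 2-fold in the double knockdown away from the 5 CPM limit. The pattern can miss KRAB genes, as with Zfp202, so the missing match does not show that Zfp37 lacks a KRAB domain. Zfp37 lies on chromosome 4 from 62189540 to 62208446. Uninduced libraries stood at 11.5, 11.6 and 13.7 CPM and OSKM libraries at 6.96, 8.75 and 5.66. Trim28-knockdown libraries stood at 8.25, 8.93 and 9.22, and double-knockdown libraries at 23.4, 22.4 and 23.6. The double-knockdown libraries were above all 9 others. Zfp37 fell by 0.81 with induction (SE 0.14, edgeR adjusted p = 6.69e-05) and rose by 1.72 in the double (SE 0.13, edgeR adjusted p = 6.82e-08). Against Trim28-knockdown cells the rise was 1.39 (SE 0.13, edgeR adjusted p = 2.73e-06), and with the Trim28 hairpin alone the difference was 0.33 (edgeR adjusted p = 0.0967). Zfp639 was the other gene without the pattern to rise against Trim28-knockdown cells, by 0.43, from 15.1 ± 1.4 to 20.3 ± 1.65 CPM.

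**Figure D4:**
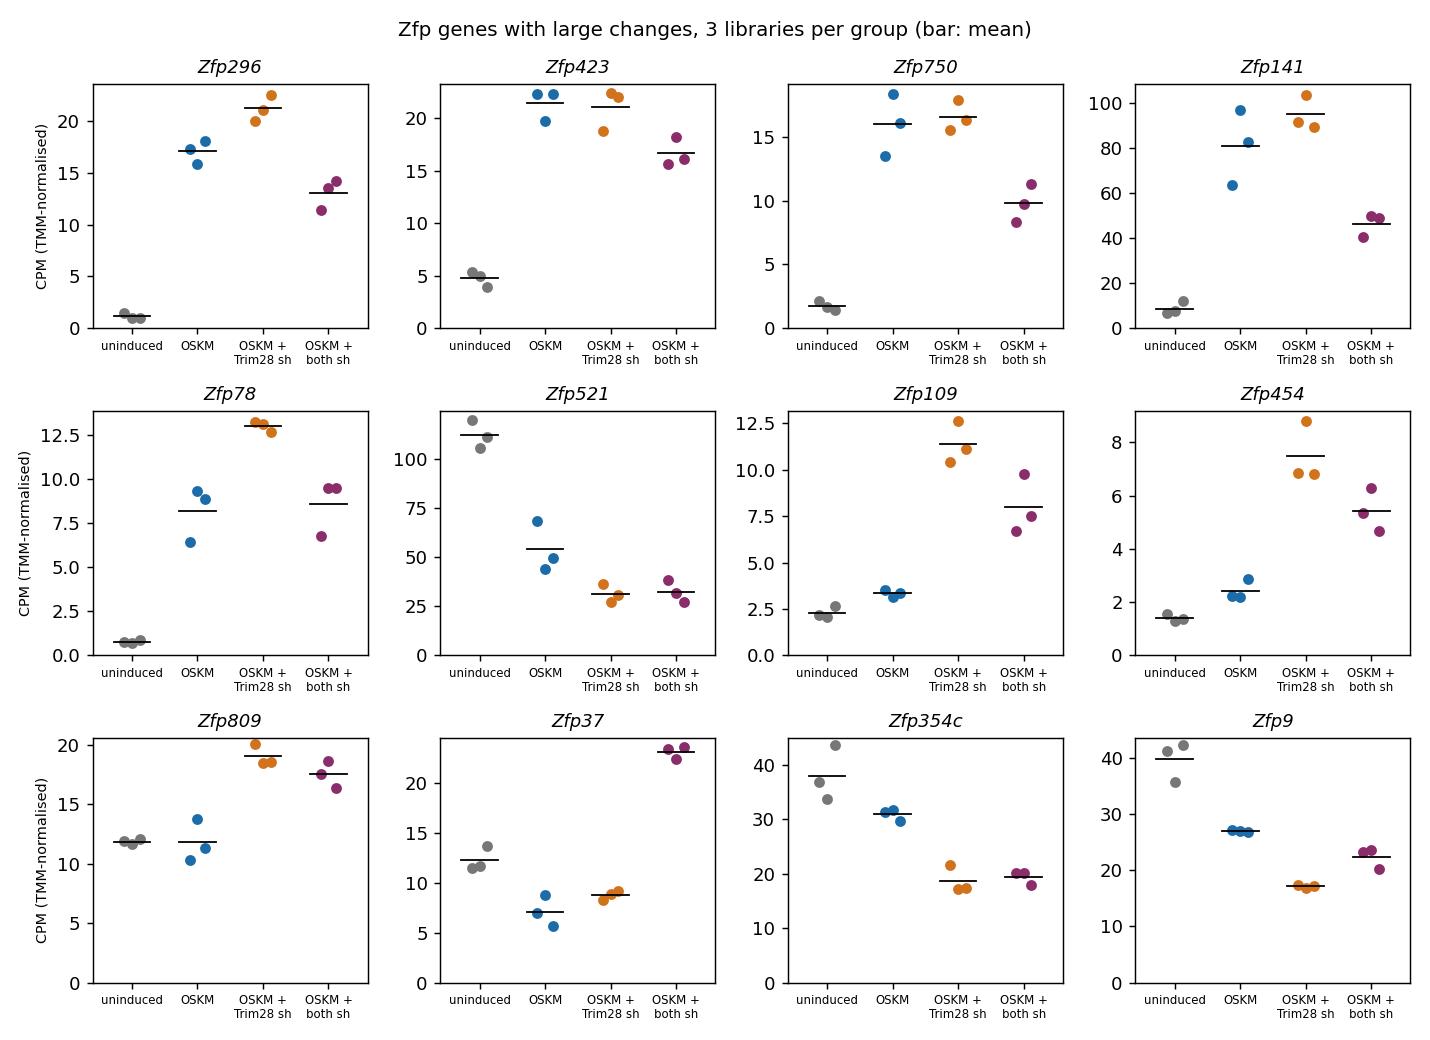
TMM-normalised CPM (vertical axis, from 0) of 12 Zfp genes in every library, by group (horizontal axis, sh = hairpin), with the mean as a bar. Zfp109 and Zfp454 stand highest with the Trim28 hairpin alone, Zfp37 only with both hairpins, at 22.4 to 23.6 CPM, and Zfp141 and Zfp750 are lower with both hairpins than in the other induced groups.

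The list of ES cell self-renewal genes had 8 members, all well expressed. With induction 4 rose (Zfp296, Zfp217, Zfp143 and Zfp706) and Zfp281 fell, or 62.5% changed against 65.3% of all genes. Zfp296, which binds Klf4 and promotes reprogramming, was at 1.5, 1.03 and 0.971 CPM uninduced and at 17.3, 15.9 and 18.1 in OSKM libraries, a difference of 3.86 that the limit used. Trim28-knockdown libraries stood at 20, 21.1 and 22.5 and double-knockdown libraries at 11.4, 13.5 and 14.2. The 3 induced groups did not overlap, with the double lowest. Against Trim28-knockdown cells Zfp296 fell by 0.70 in the double (SE 0.11, edgeR adjusted p = 0.000314), and against OSKM cells by 0.39 (edgeR adjusted p = 0.012, and 0.0677 without double-knockdown replicate 1). Its rise with Trim28 knockdown, 0.31 (edgeR adjusted p = 0.0477), was lost in 12 of 19 alternatives. Among them were the removal of any OSKM or Trim28-knockdown library (0.0667 to 0.189), of uninduced replicate 2 (0.0562) and of double-knockdown replicate 2 or 3 (0.0674 and 0.0595).

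Zfp217, a partner of histone demethylase complexes that sustains ES cells, was also lowest in the double among the induced groups, but highest in OSKM cells. It stood at 24.2, 24.8 and 24.1 CPM uninduced, 45, 48.3 and 43.5 in OSKM libraries, 41.8, 43.0 and 41.6 after Trim28 knockdown and 34.0, 35.5 and 32.6 in the double. It rose by 0.90 with induction (SE 0.07, edgeR adjusted p = 1.38e-08) and fell by 0.42 in the double (SE 0.07, edgeR adjusted p = 0.000208). Zfp322a, an activator of Pou5f1 and Nanog, fell by 0.49 in the double, from 36.8 ± 7.06 to 26.1 ± 0.807 CPM (edgeR adjusted p = 0.00449). Against Trim28-knockdown cells it fell by 0.46 (edgeR adjusted p = 0.0121, and 0.0516 without double-knockdown replicate 1). Zfp143, the mouse counterpart of human ZNF143, rose by 0.39 with induction, from 17.8 ± 0.864 to 23.3 ± 2.17 CPM, in a place shared with another listed gene. Zfp281, a regulator of Nanog, fell by 0.27 with induction, from 46.5 ± 2.11 to 38.5 ± 1.44 CPM (edgeR adjusted p = 0.00526, and 0.114 with library totals as the only scaling). Zfp706, a factor that favours exit from self-renewal, rose by 0.25 with induction from 94.6 ± 9.6 to 113 ± 15 CPM. That call was lost without uninduced replicate 1 or 2 (edgeR adjusted p = 0.111 and 0.0852) or OSKM replicate 2 or 3 (0.113 and 0.0575). In the double Zfp706 stood at 133 ± 8.18 CPM (edgeR adjusted p against OSKM cells = 0.052, and 0.0214 with the replicate number as a block). Zfp462 and Zfp207 did not pass with the main settings, with group means of 42.2 to 50.8 and 189 to 211 CPM. Zfp462 was 0.27 higher in the double than in Trim28-knockdown cells (edgeR adjusted p = 0.0646) and passed in 6 of 19 alternatives, among them those without OSKM replicate 2 or 3 (0.0355 and 0.0309) or double-knockdown replicate 3 (0.0449). Zfp207 was 0.16 lower in the double than in OSKM cells on the log2 scale (edgeR adjusted p = 0.0532). It passed there in 7 of 19 alternatives, among them DESeq2 (0.0127) and the fits without uninduced replicate 3 (0.0469) or OSKM replicate 1 or 3 (0.0395 and 0.0359). Of the 8 genes, Zfp296, Zfp217 and Zfp322a fell in both comparisons with double-knockdown cells, which share those libraries. The sum of the pluripotency markers was also lowest there among induced cells, at 134 to 159 CPM, of which L1td1 made up 114 to 133. Not every marker followed the sum, as Dppa5a reached lower values in Trim28-knockdown libraries. The part of these markers was not tested.

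Of the 5 genes of the adipocyte lineage list, which mark mesenchymal commitment, 3 rose and 1 fell with induction, where 32.7% of all genes rose and 32.7% fell. Zfp423, which commits cells to the preadipocyte fate, was at 5.37, 4.95 and 3.95 CPM uninduced and 22.3, 19.7 and 22.3 in OSKM libraries, a difference of 2.17 that the limit used. It stood at 18.8, 22.3 and 22.0 after Trim28 knockdown and 15.7, 18.2 and 16.1 in the double. Its fall in the double was -0.37 (edgeR adjusted p = 0.0149), lost without OSKM replicate 3 (0.0506) or double-knockdown replicate 1 (0.0644). Zfp521, which blocks adipogenesis, moved the other way with induction. Its libraries stood at 120, 105 and 111 CPM uninduced, 68.6, 44.2 and 49.5 in OSKM cells, 36.4, 27.3 and 30.6 after Trim28 knockdown and 38.6, 31.6 and 27.2 in the double. Each knockdown lay below OSKM cells, which lay below uninduced cells. The falls were -1.05 with induction (SE 0.14, edgeR adjusted p = 8.16e-06), -0.79 with Trim28 knockdown (SE 0.15, edgeR adjusted p = 0.00103) and -0.74 in the double (SE 0.15, edgeR adjusted p = 0.00112). The fibroblast markers summed to 14017 to 20944 CPM in OSKM libraries, 11392 to 12777 after Trim28 knockdown and 15458 to 17886 in the double, and their part in these falls was not tested. Zfp395 fell by 0.78 with Trim28 knockdown and 0.74 in the double, from 23.5 ± 5.13 to 13.9 ± 1.32 and 14.2 ± 1.94 CPM. Zfp516, a brown fat factor, rose by 0.45 with induction, from 74.3 ± 3.68 to 101 ± 4.56 CPM. Zfp467, which favours adipogenesis, rose by 0.33 (edgeR adjusted p = 0.0185, and 0.105 without OSKM replicate 1).

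Of 7 listed genes of the NET family and of neural or epidermal development, 4 were well expressed. Zfp536 and Zfp804a were under the limit, and Zfp238 had no entry under that symbol. All 4 well-expressed genes changed with induction, as did 65.3% of all genes tested. The NET corepressors Zfp503 and Zfp703 fell by 0.92 and 0.65, from 77.3 ± 6.03 to 40.8 ± 9.74 and from 58.2 ± 6.87 to 36.9 ± 7.2 CPM. In the double Zfp703 stood at 44.4 ± 1.5 CPM (edgeR adjusted p against OSKM cells = 0.0856, and 0.041 with the replicate number as a block). Zfp335, needed for neural progenitors, rose by 0.37 from 42.0 ± 3.24 to 54.3 ± 6.43 CPM, and its place in the genome overlaps other listed genes. Zfp750, an effector of epidermal differentiation, was at 2.12, 1.67 and 1.42 CPM uninduced and 13.5, 18.3 and 16.1 in OSKM libraries, a difference of 3.18 that the limit used. It stood at 15.5, 17.9 and 16.3 after Trim28 knockdown and 8.30, 9.76 and 11.3 in the double. The double-knockdown libraries were below every other induced library. The falls were -0.70 against OSKM cells (SE 0.14, edgeR adjusted p = 0.000918) and -0.76 against Trim28-knockdown cells (SE 0.14, edgeR adjusted p = 0.000966). The epithelial marker sum was likewise lower in double-knockdown libraries, and its part was not tested. Zfp750 lies within the place of Tbcd, and no source says that strand was used in counting.

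The mRNA decay genes bind AU-rich elements and hold the highest levels per length. Of 4 listed, 3 were well expressed, and 2 of them fell with induction, where 32.7% of all genes did. Zfp36l2 fell by 0.65 with induction (SE 0.07, edgeR adjusted p = 5.68e-07), from 345, 324 and 344 CPM to 239, 201 and 207. Trim28-knockdown libraries stood at 190 to 200 CPM, below the OSKM range, and double-knockdown libraries at 211 to 230, within it. Zfp36l1 fell by 0.36 with induction, from 231 ± 8.94 to 180 ± 29.5 CPM (edgeR adjusted p = 0.00364). Zfp36 stood at 152, 134 and 135 CPM uninduced, 206, 141 and 150 in OSKM libraries, 173, 163 and 156 after Trim28 knockdown and 155, 127 and 108 in the double. OSKM replicate 1 was the highest of these 12 values. Its call in the double, -0.35 (edgeR adjusted p = 0.0488), was lost without OSKM replicate 1 (0.233) or double-knockdown replicate 2 or 3 (0.107 and 0.194). It was also lost without uninduced replicate 1 or 2 (0.0525 and 0.0588) or any 1 Trim28-knockdown library (0.0516 to 0.0547).

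The list of chromatin complex genes had 8 well-expressed genes among 9 listed, and Zfp512b had no entry under that symbol. With induction 4 rose (Zfp592, Zfp532, Zfp217 and Zfp335) and Zfp644 fell, or 62.5% changed against 65.3% of all genes. Zfp592 and Zfp532, which form a complex with Zfp687, rose by 0.28 and 0.33 with induction, from 41.8 ± 1.76 to 50.6 ± 5 and from 38.2 ± 4.59 to 48 ± 0.493 CPM. With Trim28 knockdown both rose again, by 0.30 and 0.32, to 62.5 ± 1.71 and 59.9 ± 1.53 CPM (edgeR adjusted p = 0.0101 and 0.0136). For Zfp532 that call was lost without Trim28-knockdown replicate 1 or 2 (0.0528 and 0.0586) and stood at 0.05 without OSKM replicate 3. In the double they stood at 51.7 ± 3.51 and 44.4 ± 4.44 CPM, and Zfp532 fell by 0.43 against Trim28-knockdown cells (edgeR adjusted p = 0.00238). Zfp592 fell by 0.28 there (edgeR adjusted p = 0.0199), lost without Trim28-knockdown replicate 1 or 2 (0.0631 and 0.0715) or double-knockdown replicate 2 or 3 (0.0578 and 0.0849). Zfp687 fell by 0.29 in the double, from 40.5 ± 2.25 to 33.2 ± 1.29 CPM. Zfp518a also fell there, by 0.51, from 27.1 ± 5.1 to 18.9 ± 1.82 CPM, while Zfp518b did not pass. Between the knockdowns Zfp518b passed in the fit of those 2 groups alone (edgeR adjusted p = 0.0251) and without uninduced replicate 3 (0.0444), OSKM replicate 2 (0.0362) or Trim28-knockdown replicate 1 (0.0435), against 0.0522 with all libraries. With induction Zfp518b passed under library totals as the only scaling (0.00611). Zfp644, a partner of the H3 lysine 9 methyltransferases G9a and GLP, fell by 0.34 with induction, from 59.7 ± 3.51 to 47.4 ± 5.86 CPM (edgeR adjusted p = 0.00349, and 0.0524 with library totals as the only scaling).

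Genes acting on RNA, ribosomes, ubiquitin or SUMO numbered 10 among 12 listed, as Zfp259 and Zfp638 had no entry under those symbols. By edgeR 0 of the 10 changed with Trim28 knockdown or between the knockdowns. At unadjusted p under 0.05 the counts were 1 and 2, and DESeq2 gave 0 in both. An edgeR fit of the 2 knockdown groups alone changed Zfp106, Zfp451, Zfp598 and Zfp91 between them (adjusted p = 0.0348, 0.012, 0.0253 and 0.0316). With Trim28 knockdown, Zfp106 passed without OSKM replicate 1 (0.0483) and Zfp91 without OSKM replicate 2 (0.0191). With induction 4 of the 10 rose and 2 fell, where 65.3% of all genes changed. Zfp598, the ubiquitin ligase that senses collided ribosomes, rose by 0.83 (SE 0.09, edgeR adjusted p = 4.57e-07), from 53.6, 48.3 and 43.0 CPM to 87.6, 75 and 94.2. Its knockdown libraries stood at 75.2 to 87.6 CPM, within the OSKM range. Zfp106, an RNA-binding protein of motor neurons, rose by 0.53, from 300 ± 8.2 to 433 ± 35.2 CPM, and fell by 0.29 in the double, to 354 ± 25.6 (edgeR adjusted p = 0.00397). Zfp830 rose by 0.46, from 10.7 ± 0.296 to 14.9 ± 1.94 CPM. Zfp593, a factor of large ribosomal subunit assembly, rose by 0.34 (edgeR adjusted p = 0.0116), lost without uninduced replicate 3 (0.057) or OSKM replicate 3 (0.0704). Zfp346, which binds double-stranded RNA, rose by 0.36 in the double, from 26.8 ± 1.75 to 34.5 ± 1.82 CPM (edgeR adjusted p = 0.00397). Its fall with induction, -0.25 (edgeR adjusted p = 0.0182), was lost without uninduced replicate 1 (0.11) or OSKM replicate 1 or 2 (0.0664 and 0.0519). The fall of the ubiquitin ligase Zfp91, -0.27 (edgeR adjusted p = 0.0142), was lost without uninduced replicate 3 (0.0753) or OSKM replicate 1 or 3 (0.0545 and 0.0866). Zfp622, Zfp326 and Zfp451 did not pass in any comparison with the main settings. Zfp622 passed with induction under library totals as the only scaling (edgeR adjusted p = 0.0371). Of the promoter factors, Zfp148 and Zfp384 did not pass with the main settings, with group means of 102 to 116 and 61.9 to 65.7 CPM. Zfp148 passed with induction without OSKM replicate 2 (edgeR adjusted p = 0.00621) and without a filter on low counts (0.0448).

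**Figure D5:**
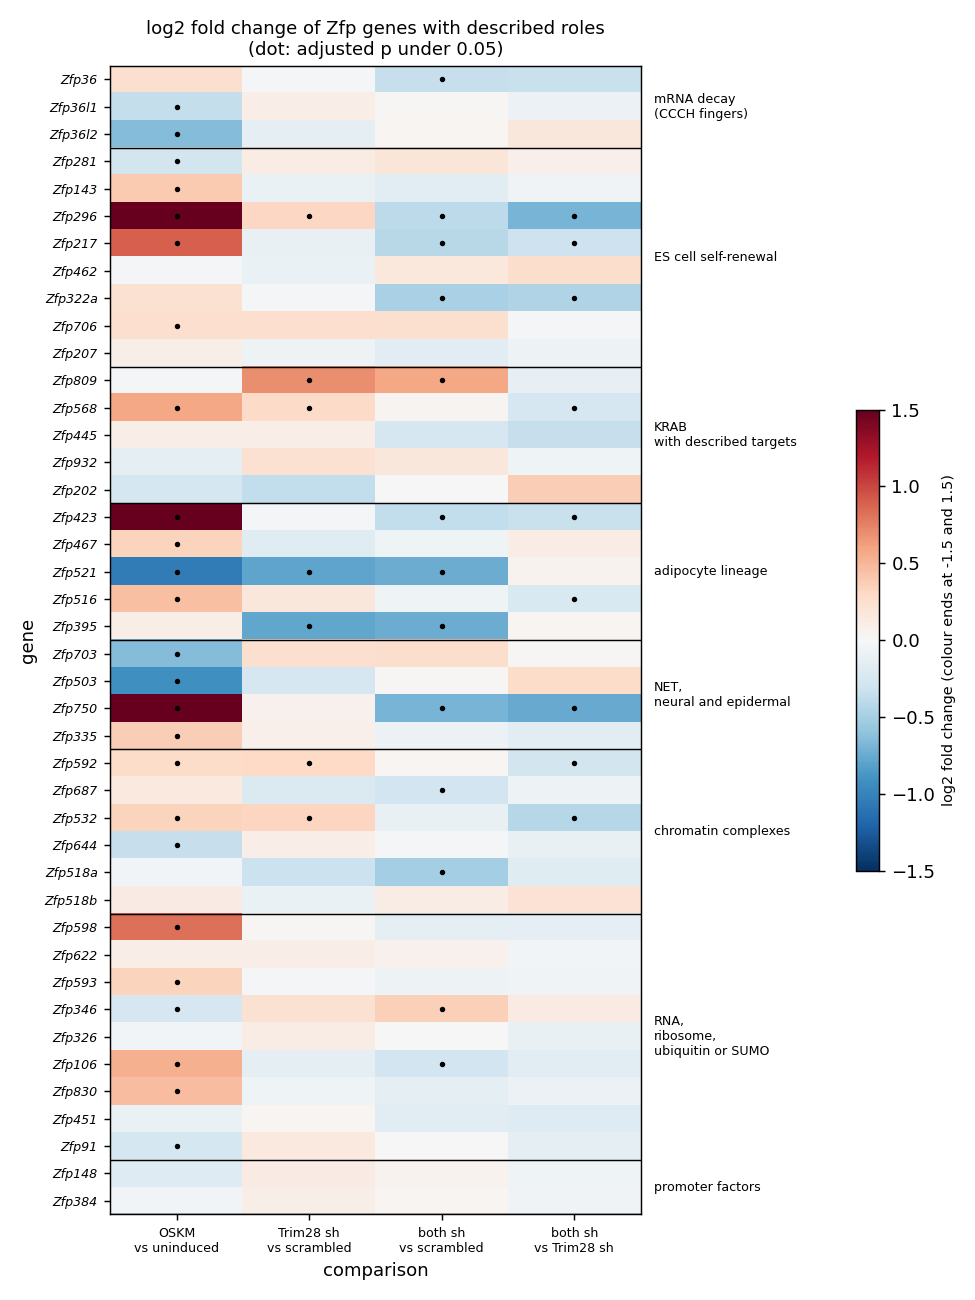
Log2 fold change (colour, ending at -1.5 and 1.5) of Zfp genes with described roles (rows, each shown once, grouped by role) in the 4 comparisons (columns). Dots mark edgeR adjusted p under 0.05. With induction most groups hold both rises and falls, and no dot lies in the columns of Trim28 knockdown or of both hairpins against Trim28 alone for the RNA, ribosome, ubiquitin or SUMO list.

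Some of the largest changes belonged to genes without the KRAB pattern and outside these lists. With induction Zfp710 rose by 1.65, from 17.7 ± 2.21 to 55.4 ± 5.1 CPM. Zfp697, Zfp651 and Zfp365 fell by 0.97, 0.89 and 0.83, from 12.4 ± 0.818 to 6.38 ± 0.714, from 67.9 ± 7.3 to 36.5 ± 8.59 and from 52.3 ± 3.12 to 29.6 ± 3.47 CPM. Zfp449 and Zfp579 fell by 0.82 and 0.72, to 9.28 ± 1.7 and 8.13 ± 1.97 CPM. Zfp651, Zfp697 and Zfp579 stood higher in double-knockdown than in OSKM cells, by 0.70, 0.57 and 0.55, at 59.9 ± 5.73, 9.38 ± 0.754 and 12.1 ± 0.868 CPM. These comparisons share the OSKM libraries, so a value high or low by chance in those libraries moves both.

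Zfp41 differed between OSKM cells and both knockdowns. Zfp704 stood apart from OSKM cells with the Trim28 hairpin alone, while its double-knockdown libraries overlapped OSKM libraries. Zfp41 had 10.7, 9.80 and 12.2 CPM in OSKM libraries, 7.30, 8.45 and 7.01 after Trim28 knockdown and 5.53, 7.48 and 5.26 in the double. Both knockdowns lay below OSKM cells without overlap. It fell by 0.84 in the double (SE 0.14, edgeR adjusted p = 0.00025) and by 0.53 with Trim28 knockdown (edgeR adjusted p = 0.0105, and 0.0587 without OSKM replicate 3). Zfp704 went from 75.1, 88.1 and 69.1 CPM in OSKM libraries to 104, 112 and 104 after Trim28 knockdown and 67.6, 72.9 and 62.3 in the double. It was highest with the Trim28 hairpin alone. The rise was 0.46 (SE 0.08, edgeR adjusted p = 0.000651) and the fall against Trim28-knockdown cells -0.65 (SE 0.08, edgeR adjusted p = 6.26e-05). Zfp280b rose by 0.41 with Trim28 knockdown, from 24.0 ± 2.12 to 31.9 ± 2.22 CPM.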

How the data were processed

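RNA of 12 libraries was measured by RNA-seq. The table deposited by the authors holds raw read counts of 24207 genes, made with TopHat2 2.0.12, Bowtie 1.1 and HTSeq, per the submitters' processing notes. The genome build, annotation, strand setting and handling of multiply mapped reads are not given in the sources used here. Of the identifiers, 23882 were found in the GRCm38 annotation GENCODE M21, 23856 of them at an overlapping place. Overlapping genes, and near-identical Zfp copies, may share reads.

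Groups and replicate numbers come from the sample titles. The 256 genes and all lists, motifs and tests were chosen with earlier results of these data known. The test was that of edgeR 4.0.16, run in R 4.3.3 (filterByExpr with minimum count 10 and minimum total 15, 14520 genes kept, all 256 Zfp genes among them; TMM factors of 0.943 to 1.04; quasi-likelihood F-test, 1 term per group). Adjusted p-values are Benjamini-Hochberg over all genes tested, and fold changes are log2 with the model SE. The scripts were tested on simulated data. Alternatives were DESeq2 1.42.0, other scalings and filters, a replicate block, 2-group fits and leaving out each library. No pair of libraries of a group agreed within sampling noise. Deviations from the group means of same-numbered OSKM and double-knockdown libraries correlated at 0.368, 0.187 and 0.264. Those of different-numbered libraries of these 2 groups correlated between -0.258 and 0.0126. In the other comparisons at least 1 same-numbered pair was under 0.1. The labels do not state pairs, so the main fit was unpaired in every comparison. Replicate numbers entered only the alternative with a replicate block.

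Genes were named as the 8 largest rises and falls per comparison (changed, no overlap, mean of at least 5 CPM over all libraries), the members of the role lists, and genes at the limit, of which the text gives a part. The KRAB pattern is either of 2 conserved stretches of that domain.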

Additional observations from a re-analysis of the deposited data

How the results depend on the processing

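Of 221 results for single named genes, 107 passed the test, and 83 of these kept their call in every one of 19 alternatives. Of the 114 that did not pass, 80 stayed so, and no called change reversed its sign. Leaving out 1 library at a time gave 58 to 75 rising and 44 to 67 falling Zfp genes with induction (69 and 59 with all libraries), 9 to 34 and 5 to 20 with Trim28 knockdown (20 and 9), 9 to 21 and 36 to 65 in the double knockdown (17 and 51), and 3 to 8 and 20 to 47 in the double against the Trim28 knockdown (3 and 37). Without a filter on low counts, 16 Zfp genes fell with Trim28 knockdown, and 7 rose in the double against the Trim28 knockdown. Fits of only the 2 groups compared gave 39 falling with induction, and 13 rising and 67 falling in the double against the Trim28 knockdown. Over all genes those fits gave 3929 of 13986 falling, and 2376 rising and 2473 falling of 14064. With library totals as the only scaling, chosen after seeing the data, 30 Zfp genes fell with induction. There 3619 of all 14520 genes fell, and the median of all genes moved to 0.11. Over all groups, deviations of same-numbered libraries correlated between -0.323 and 0.368, and 8 of 18 pairs were over 0.1. Those of different-numbered libraries correlated between -0.372 and 0.518, and 6 of 36 pairs were over 0.1. Of the 12 libraries, 7 correlated best with their own number, and all 9 same-numbered pairs among induced libraries were positive. With the replicate number as a block over all 12 libraries, 6 genes rose in the double against the Trim28 knockdown, and the other counts stayed within 1.5 times (21 rising and 58 falling in the double against OSKM cells). In that comparison the block changed no named call but Zfp703 and Zfp706. Elsewhere Zfp36 passed with induction (0.0305), Zfp706 with Trim28 knockdown (0.0212), and Zfp36, Zfp445 and Zfp462 between the knockdowns (0.00865, 0.03 and 0.033). Choosing genes by their mean over all 12 libraries left 238 and gave every count within 1.5 times. The cause of these shifts was not tested. In 1 library 3 counts equal 0.156 to 0.252 CPM, and the smallest detectable difference was not computed.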
